A study of Homo sapiens with 6 samples.

Results

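The genes described here are 10 genes that mark and maintain the plasma cell state, grouped by role: the transcription regulators PRDM1, IRF4, XBP1 and POU2AF1, the surface proteins TNFRSF17, SDC1, SLAMF7 and CD38, and the secretory proteins MZB1 and JCHAIN. They were chosen by name, with earlier results of these data known. All 10 were found by Ensembl identifier among the 63677 genes of the deposited count table, each once and on a primary chromosome. The cells were RPMI8226, an established human multiple myeloma line labelled as wild type, and the labels name no other agent. They were exposed for 6 hr to 100 nM GST-PTR1, in which glutathione-S-transferase (GST) carries PTR1, a domain of the extracellular matrix protein HAPLN1, or to 100 nM GST alone, with 3 biological replicates of each. All libraries thus come from 1 cell line and 1 time point, and the controls carry the fusion partner.

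Plasma cells are the antibody-secreting end stage of the B cell lineage, and multiple myeloma is the cancer of these cells. BLIMP-1, the product of PRDM1, shuts off the B cell programme, IRF4 sustains plasma cell survival, and XBP1 builds up the secretory apparatus that antibody production requires. Several surface proteins of these cells, among them BCMA, SLAMF7 and CD38, are targets of myeloma therapies.

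The 6 libraries had totals of 15202503, 20077280 and 23453473 for GST against 22874133, 28837431 and 44688737 counts for GST-PTR1. Values are given below in that order, from the smallest to the largest library of each treatment, as RPKM, reads divided by the length of a gene's exons and by the library's total, with totals scaled by TMM. TMM is a scaling that sets the bulk of genes level between libraries, and its factors were 1.05 to 1.10 for GST and 0.8826 to 0.9746 for GST-PTR1. GST-PTR1 was compared with GST by the quasi-likelihood test of edgeR, p-values were adjusted by Benjamini-Hochberg across the 16926 genes that passed the filter on low counts, where a gene was called at an adjusted p under 0.05. All 10 plasma cell genes passed the filter. The GST library of 15202503 counts held the highest GST value for 8 of the 10 genes, and each call of the 10 genes was also made without it.

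As a group, the genes did not move together. PRDM1, IRF4 and SLAMF7 rose with GST-PTR1, TNFRSF17, SDC1 and XBP1 fell, and POU2AF1, CD38, MZB1 and JCHAIN were not called. Of all genes tested, 9.15% were called higher, 11.4% lower and 20.6% in either direction. This was 1549 genes higher and 1937 lower, and with library totals in place of TMM, which moved the median over all genes from 0.01 to -0.19 on the log2 scale, it was 927 higher and 3795 lower. The median log2 fold change of the 10 genes was -0.01, beside 0.01 over all genes tested. For 6 of the 10 there was no overlap between treatments, beside 40.4% of all genes. For these 6 genes the exact two-sided permutation p was 0.1, the smallest that 3 libraries against 3 can give, and for the other 4 it was 0.3 to 0.9. In bulk RNA, fewer cells expressing a gene and less RNA of it per cell cannot be told apart.

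**Figure D1:**
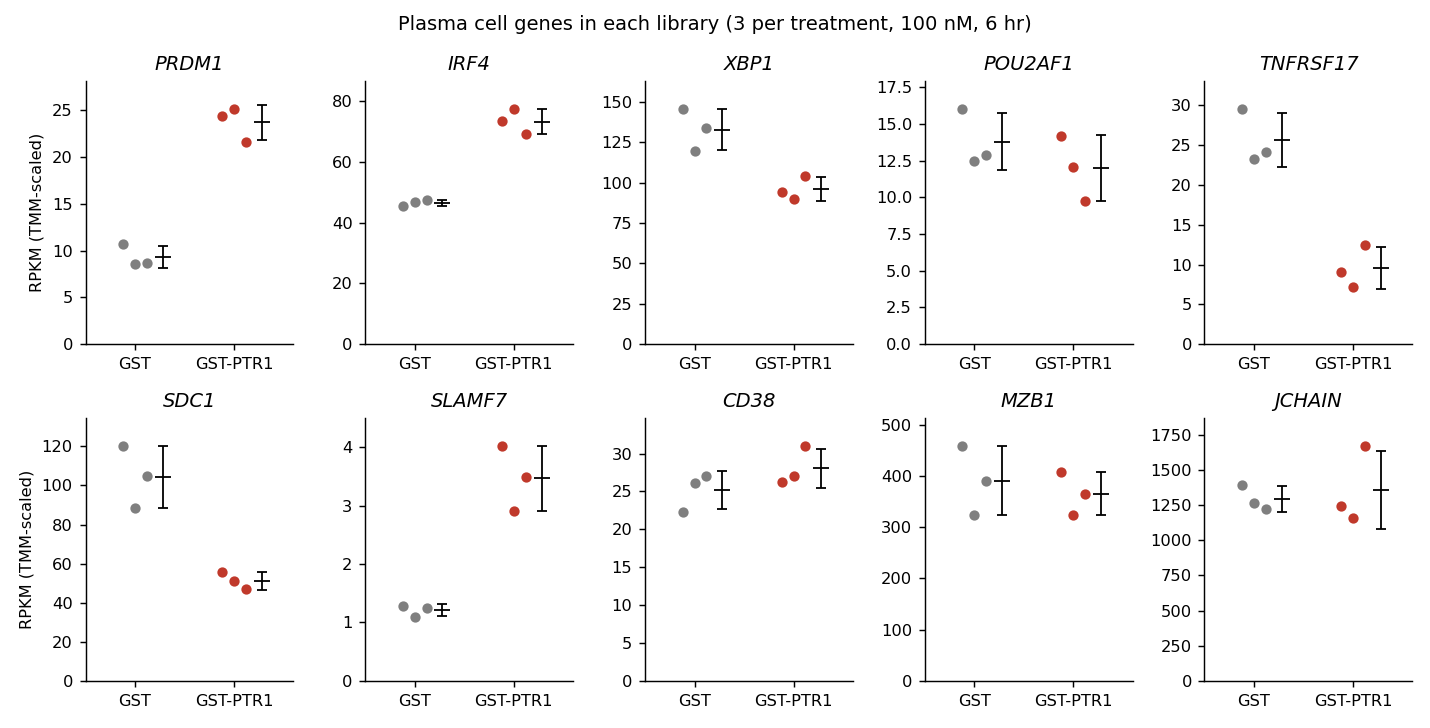
RPKM on TMM-scaled totals (linear axes from 0, a panel per gene) of the 10 plasma cell genes in the 3 GST and the 3 GST-PTR1 libraries, with each point a library (smallest total first), and a dash with bars beside them the treatment mean and SD. The libraries of the treatments do not overlap for PRDM1, IRF4, XBP1, TNFRSF17, SDC1 and SLAMF7, and they overlap for POU2AF1, CD38, MZB1 and JCHAIN.

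PRDM1 (ENSG00000057657, GRCh37 chr6:106534195-106557814, plus strand, 10 separate exon stretches) encodes the repressor BLIMP-1, whose loss blocks plasma cell formation. Its level was 10.7, 8.61 and 8.67 RPKM with GST and 24.4, 25.1 and 21.6 RPKM with GST-PTR1. The lowest GST-PTR1 library thus lay above the highest GST library. The means were 9.32 ± 1.17 and 23.7 ± 1.88 RPKM (SD, n = 3), and in the edgeR fit the difference was 2.55-fold. The edgeR quasi-likelihood test gave a log2 fold change of 1.35 (SE 0.12, 95% confidence interval 1.09 to 1.61, adjusted p = 1.56e-05). Ranked among all genes tested, the mean level moved from the 68.4th to the 83.6th percentile.

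IRF4 (ENSG00000137265, GRCh37 chr6:391739-411447, plus strand) encodes the interferon regulatory factor on which myeloma cells depend for survival. It stood at 45.6, 46.8 and 47.4 RPKM with GST, the tightest of the 10 genes across control libraries with a coefficient of variation of 1.93%. With GST-PTR1 it stood at 73.5, 77.4 and 69.1 RPKM, every library above every control. The log2 fold change was 0.65 (SE 0.10, 95% confidence interval 0.43 to 0.88, edgeR quasi-likelihood adjusted p = 0.00106), a 1.57-fold difference in the edgeR fit.

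XBP1 (ENSG00000100219, GRCh37 chr22:29190543-29196585, minus strand, 6 exon stretches) encodes the transcription factor of the unfolded protein response, which becomes active when the nuclease IRE1 splices its mRNA. Against the other regulators that were called, it fell. Its level was 145.4, 119.5 and 133.6 RPKM with GST and 94.2, 89.7 and 104.0 RPKM with GST-PTR1, so that the treatments were separate but closer than for PRDM1. The means were 132.8 ± 12.9 and 96.0 ± 7.31 RPKM (SD, n = 3). The edgeR fit gave a log2 fold change of -0.47 (SE 0.11, 95% confidence interval -0.72 to -0.22, edgeR quasi-likelihood adjusted p = 0.0149). The adjusted p was 0.0599 when the GST library of 23453473 counts was left out and 0.0833 when the GST-PTR1 library of 28837431 counts was, within a range of 0.00141 to 0.0833 over 14 alternatives, and the gene remained lower in all of them. Counts per gene do not separate the spliced from the unspliced form of the mRNA.

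The fourth regulator, POU2AF1 (ENSG00000110777, GRCh37 chr11:111222977-111326355, minus strand), encodes OCA-B, a B cell coactivator that binds the octamer factors on DNA. It read 16.0, 12.5 and 12.9 RPKM with GST and 14.2, 12.1 and 9.74 RPKM with GST-PTR1. The treatments overlapped, and the log2 fold change of -0.20 was not called (95% confidence interval -0.52 to 0.13, edgeR quasi-likelihood adjusted p = 0.364).

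The promoters of XBP1, PRDM1 and SDC1 are shown because these genes changed, and in different directions, while sharing a short motif before their first listed start. CCACG is part of the ER stress response element, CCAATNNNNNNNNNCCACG, which ATF6 and NF-Y bind in genes of the unfolded protein response, XBP1 among them. The windows are the 250 bases before the first listed start of each gene, from RefSeq on GRCh38.p14, a later build than that of the counts, written 5′ to 3′ on the gene's own strand. They lie at chr22:28800570-28800819 (minus strand) for XBP1, chr6:106086086-106086335 (plus strand) for PRDM1 and chr2:20225476-20225725 (minus strand) for SDC1. Capitals mark CCACG on either strand and, in XBP1, the whole ER stress response element.
XBP1: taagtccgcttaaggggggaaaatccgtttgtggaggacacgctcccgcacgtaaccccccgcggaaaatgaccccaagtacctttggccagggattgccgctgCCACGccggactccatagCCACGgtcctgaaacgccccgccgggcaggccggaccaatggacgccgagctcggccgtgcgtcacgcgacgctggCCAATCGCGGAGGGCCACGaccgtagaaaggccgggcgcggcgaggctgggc
PRDM1: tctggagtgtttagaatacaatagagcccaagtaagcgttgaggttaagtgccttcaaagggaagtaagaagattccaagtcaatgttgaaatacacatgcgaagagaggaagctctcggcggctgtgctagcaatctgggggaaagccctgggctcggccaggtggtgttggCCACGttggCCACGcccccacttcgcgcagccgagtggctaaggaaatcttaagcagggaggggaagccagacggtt
SDC1: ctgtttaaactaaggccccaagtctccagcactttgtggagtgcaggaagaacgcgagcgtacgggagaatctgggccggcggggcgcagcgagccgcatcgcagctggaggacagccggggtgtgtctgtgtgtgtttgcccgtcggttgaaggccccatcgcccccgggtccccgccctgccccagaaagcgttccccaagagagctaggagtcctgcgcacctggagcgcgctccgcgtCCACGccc

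In XBP1 the ER stress response element lay at positions -52 to -34 from the start, and its last 5 bases were 1 of 3 CCACG motifs in the window. PRDM1 held CCACG at -77 to -73 and -68 to -64, and SDC1 at -8 to -4. Windows were found for 7 of the 10 genes, 10 windows in all counting other starts. TNFRSF17, SLAMF7 and POU2AF1 had no entry. On both strands, CCACG occurred in 6 of these 10 windows, from 5 genes, and in 33.5% of 35116 windows of the same length from the whole RefSeq table. The windows of the other listed starts of PRDM1 and SDC1 held none, nor did those of IRF4, which rose, and JCHAIN. The ER stress response element occurred in 0.074% of all windows and, among the plasma cell genes, in that of XBP1. CCACG thus stood in genes that rose, fell and were not called, CD38 and MZB1 being among the last. The octamer ATGCAAAT (1.63% of all windows) and the NF-κB consensus (5.21%) had no match in the 10 windows, and the interferon response core GAAANNGAA (6.88%) had a match in that of CD38. A match is a run of letters and does not show binding.

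Of the 4 surface proteins, 2 fell, 1 rose and 1 was not called. TNFRSF17 (ENSG00000048462, GRCh37 chr16:12058964-12061925, plus strand) encodes BCMA, the receptor of BAFF and APRIL that keeps long-lived plasma cells alive. It stood at 29.5, 23.2 and 24.1 RPKM with GST and at 9.08, 7.24 and 12.4 RPKM with GST-PTR1. Every GST-PTR1 library lay below every GST library, although the GST-PTR1 libraries varied among themselves by a coefficient of variation of 27.2%, the highest of any of the 10 genes in either treatment. The means were 25.6 ± 3.39 and 9.56 ± 2.6 RPKM (SD, n = 3). In the edgeR fit the difference was 2.65-fold, with a log2 fold change of -1.41 (SE 0.19, 95% confidence interval -1.82 to -1.0, edgeR quasi-likelihood adjusted p = 0.000374). Among all genes tested, its mean level went from percentile 86.2 to percentile 66.9.

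SDC1 (ENSG00000115884, GRCh37 chr2:20400558-20425194, minus strand) encodes syndecan-1 or CD138, the heparan sulfate proteoglycan by which plasma cells are recognised in the clinic. Its level was 120.2, 88.3 and 104.7 RPKM with GST and 55.6, 50.9 and 46.8 RPKM with GST-PTR1, without overlap. In the edgeR fit the level was 51.1% lower, and the log2 fold change was -1.03 (SE 0.13, 95% confidence interval -1.32 to -0.74, edgeR quasi-likelihood adjusted p = 0.000272). SDC1 remained at the 92.0th percentile of levels with GST-PTR1, from the 97.0th with GST.

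SLAMF7 (ENSG00000026751, GRCh37 chr1:160709037-160724611, plus strand) encodes a receptor of the SLAM family that binds itself on neighbouring cells. It was the least abundant of the 10 genes, with 1.29, 1.10 and 1.24 RPKM under GST, at the 24.4th percentile. It reached 4.02, 2.91 and 3.48 RPKM under GST-PTR1, at the 45.5th percentile. These values rest on 99 to 142 counts per GST library and 365 to 632 per GST-PTR1 library. The means were 1.21 ± 0.0984 and 3.47 ± 0.557 RPKM (SD, n = 3). In the edgeR fit the difference was 2.86-fold, with a log2 fold change of 1.52 (SE 0.16, 95% confidence interval 1.17 to 1.87, edgeR quasi-likelihood adjusted p = 5.81e-05).

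CD38 (ENSG00000004468, GRCh37 chr4:15779898-15854853, plus strand), a surface enzyme that consumes NAD, was not called. It stood at 22.3, 26.1 and 27.0 RPKM with GST and 26.2, 27.0 and 31.0 RPKM with GST-PTR1, and the treatments overlapped. The log2 fold change was 0.16 (95% confidence interval -0.09 to 0.41, edgeR quasi-likelihood adjusted p = 0.347).

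**Figure D2:**
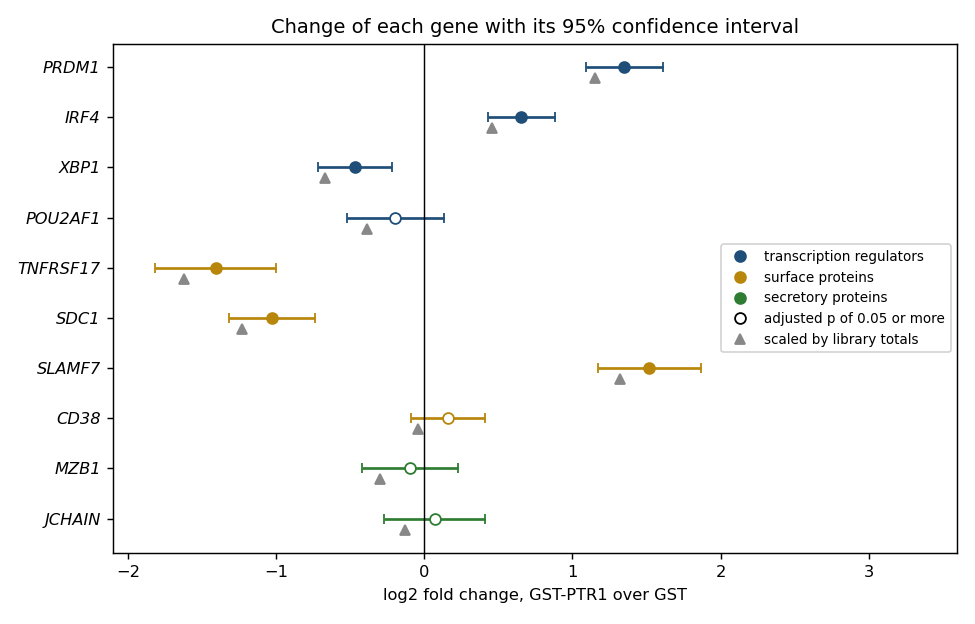
Log2 fold change of each plasma cell gene, GST-PTR1 over GST, on the horizontal axis, with points for the edgeR estimate, bars for its 95% confidence interval, colors for roles, open points for an adjusted p of 0.05 or more, and triangles for the value with library totals in place of TMM. PRDM1, IRF4 and SLAMF7 lie to the right of 0, XBP1, TNFRSF17 and SDC1 to the left, and the intervals of POU2AF1, CD38, MZB1 and JCHAIN include 0, with the triangles of CD38 (-0.04) and JCHAIN (-0.13) on the other side of 0.

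The secretory proteins were the most abundant of the 10 genes, and neither was called. MZB1 (ENSG00000170476, GRCh37 chr5:138723169-138725770, minus strand) encodes a chaperone of the endoplasmic reticulum that helps assemble and secrete antibodies. It read 458.5, 323.0 and 390.2 RPKM with GST and 407.0, 323.0 and 365.2 RPKM with GST-PTR1, and the treatments overlapped. JCHAIN (ENSG00000132465, GRCh37 chr4:71521258-71547534, minus strand) encodes the chain that joins antibody units into IgM pentamers and IgA dimers. It read 1395, 1263 and 1219 RPKM with GST and 1245, 1157 and 1670 RPKM with GST-PTR1. Both the lowest and the highest JCHAIN value of all libraries came from GST-PTR1, and 5.2% of its exon bases lie opposite ENAM on the other strand, which counting by strand keeps apart. The log2 fold changes were -0.10 for MZB1 (95% confidence interval -0.42 to 0.23, edgeR quasi-likelihood adjusted p = 0.669) and 0.07 for JCHAIN (-0.27 to 0.41, adjusted p = 0.773). These intervals leave room for changes of modest size in either direction.

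Set against each other by role, the 4 regulators comprised 2 genes called higher, 1 lower and 1 not called, with a median log2 fold change of 0.23. The 6 markers, surface and secretory together, comprised 1 called higher, 2 lower and 3 not called, with a median of -0.01. In each library, the median log2 RPKM of the regulators minus that of the markers was -1.14, -0.99 and -1.11 with GST and 0.15, 0.25 and 0.02 with GST-PTR1. The mean difference thus went from -1.08 to 0.14, a shift of 1.22 that does not depend on how libraries are scaled. It does depend on which genes sit in the middle of so few. Among the regulators, PRDM1 passed POU2AF1 to stand in the middle with IRF4. Among the markers, CD38 and SDC1 stood in the middle with GST-PTR1, and likewise in all GST libraries but the smallest. There, TNFRSF17 stood in the place of CD38. With the mean in place of the median, a choice made after the values were seen, the shift was 0.47.

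Ratios of genes within a library are likewise free of scaling, and the following pairs were chosen after their values were seen and carry no test. PRDM1 stood at 0.0734, 0.072 and 0.0649 of the XBP1 level with GST and at 0.259, 0.28 and 0.207 with GST-PTR1, 3.55 times the GST mean. IRF4 stood at 0.314, 0.391 and 0.355 of XBP1 with GST and at 0.78, 0.863 and 0.664 with GST-PTR1. XBP1 fell and the genes set over it rose, each without overlap, so that separate ratios follow from the values given above. SLAMF7 over TNFRSF17 went from 0.0439, 0.0475 and 0.0513 to 0.443, 0.401 and 0.282, a 7.89-fold difference of the means. CD38 over SDC1 went from 0.185, 0.296 and 0.258 to 0.471, 0.53 and 0.662, a 2.25-fold difference. The same holds for SLAMF7 over TNFRSF17, and in the last pair CD38 was not called. RPKM divides by the length of all annotated exons, so that a ratio between genes also carries the error of those lengths, which is the same in every library.

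**Figure D3:**
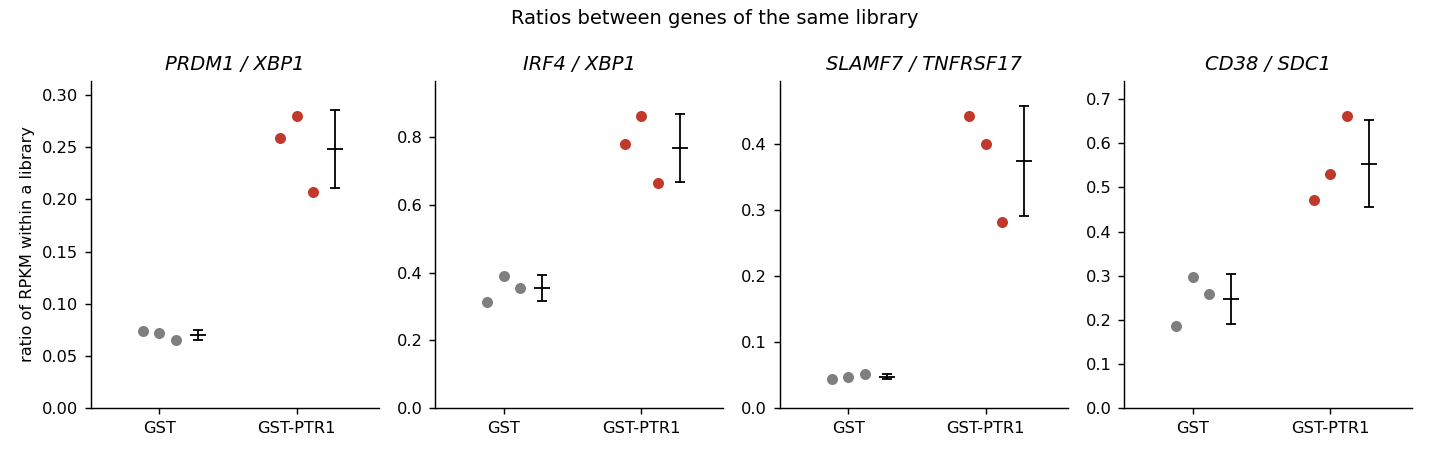
Ratio of RPKM values between pairs of plasma cell genes within each library (linear axes from 0), with each point a library (smallest total first), and a dash with bars beside them the treatment mean and SD. The GST-PTR1 libraries lie above the GST libraries in all 4 pairs, by 2.18 to 7.89 times on the means.

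The 10 genes together took 0.537%, 0.438% and 0.464% of all counts under GST and 0.429%, 0.383% and 0.439% under GST-PTR1. JCHAIN and MZB1 made up most of this, with 0.300% to 0.370% of all counts under GST and 0.253% to 0.321% under GST-PTR1. Both shares overlapped between the treatments.

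Genes that work with the plasma cell regulators gave a mixed picture. Of 13 partners, 12 passed the filter, 3 were called higher, 2 lower and 7 not, with a median log2 fold change of 0.06. Beside this and the lists below, 9.15% of all genes tested were called higher and 11.4% lower. ELL2, an elongation factor that steers antibody heavy chain mRNA to its secreted form, rose from 62.7, 52.1 and 50.5 to 259, 249.3 and 211.6 CPM, the read count scaled to the TMM-scaled total without regard to length. Its log2 fold change was 2.12 (SE 0.13, edgeR quasi-likelihood adjusted p = 7.04e-07). POU2F2, an octamer factor with which OCA-B acts, rose from 1.32, 0.711 and 0.722 to 3.28, 3.52 and 2.79 CPM (log2 fold change 1.83, edgeR quasi-likelihood adjusted p = 0.000767). It rested on 55 counts over all GST libraries. POU2F1, another octamer factor, was more abundant, at 36.5, 30.5 and 30.2 CPM with GST and 40.0, 36.4 and 27.4 CPM with GST-PTR1. It was not called (log2 fold change 0.09, edgeR quasi-likelihood adjusted p = 0.687). IKZF1, a target of the drug lenalidomide, rose by 0.59 on the log2 scale (adjusted p = 0.00272). IKZF3 of the same list was not called (log2 fold change -0.14, adjusted p = 0.627). The partners called lower were CREB3L2, a membrane-bound factor of the secretory pathway, and ERN1, which encodes IRE1, the nuclease that splices XBP1 mRNA. CREB3L2 had a log2 fold change of -1.07 (adjusted p = 0.00206). ERN1 stood at 164, 119.4 and 118.5 CPM with GST and 81.2, 83.2 and 64.6 CPM with GST-PTR1 (log2 fold change -0.81, SE 0.15, edgeR quasi-likelihood adjusted p = 0.00325), thus lower in the same libraries as XBP1.

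Other genes of the secretory pathway, many of them induced by XBP1 in plasma cells, were mostly not called. All 22 passed the filter, 1 was called higher, 2 lower and 19 not, with a median log2 fold change of -0.02. Most of all genes tested were likewise not called, with 20.6% called in either direction. EDEM1, which sends misfolded glycoproteins to degradation, fell from 148.4, 121.3 and 114.7 to 89.9, 89.3 and 76.4 CPM (log2 fold change -0.59, edgeR quasi-likelihood adjusted p = 0.00667). HERPUD1, of the same degradation pathway, and SEC61B, of the translocation channel, passed narrowly with log2 fold changes of -0.36 (adjusted p = 0.0409) and 0.43 (adjusted p = 0.0497), and each was lost in 8 of the alternatives tried.

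Of 19 other surface genes of plasma cells, 15 passed the filter, 2 were called higher, 5 lower and 8 not, with a median log2 fold change of -0.14. CD44, a hyaluronan receptor, rose from 0.481, 0.284 and 0.361 to 6.11, 8.65 and 10.3 CPM (log2 fold change 4.49, SE 0.30, edgeR quasi-likelihood adjusted p = 1.68e-06). This large ratio starts from 23 counts over all GST libraries, and the mean with GST-PTR1 was still low, at 0.83 RPKM. TNFRSF13B, which encodes TACI, shares the ligands of BCMA. It was higher with GST-PTR1, at 58.4, 50.8 and 48.1 CPM against 41.5, 33.0 and 35.9, where TNFRSF17 was lower (log2 fold change 0.51, edgeR quasi-likelihood adjusted p = 0.0142). Its call was lost with library totals in place of TMM and without the GST library of 23453473 counts. LY9, a relative of SLAMF7 in the SLAM family, fell by 1.53 on the log2 scale (edgeR quasi-likelihood adjusted p = 0.00882). It was scarce, at 1.5, 1.23 and 1.16 CPM with GST and 0.674, 0.257 and 0.431 CPM with GST-PTR1, at most 29 counts in a library. CD48, of the same family, had a log2 fold change of 0.93 and was not called (edgeR quasi-likelihood adjusted p = 0.0566). SLAMF1, SLAMF6 and CD84, also of this family, were under the filter. GPRC5D and LAX1 had log2 fold changes of -0.76 and -0.75 (adjusted p = 0.0157 and 0.0161), and each call was lost without 1 of the GST-PTR1 libraries.

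Genes of the B cell programme, which plasma cells keep silent, were in part present in these cells and in part under the filter. Of 16 genes, 11 passed the filter, 4 were called higher, 1 lower and 6 not, with a median log2 fold change of 0.21. CIITA, the activator of MHC class II genes and a known target of repression by BLIMP-1, rose from 26.6, 18.1 and 19.1 to 169.5, 197.2 and 165.6 CPM (log2 fold change 3.07, edgeR quasi-likelihood adjusted p = 2.47e-07). BCL6, the germinal centre repressor that opposes BLIMP-1, rose from 4.27, 3.22 and 2.97 to 20.7, 24.8 and 23.1 CPM (log2 fold change 2.73, adjusted p = 7.11e-07). PRDM1 and BCL6 were thus both higher in every GST-PTR1 library. IRF8, a relative of IRF4 that acts earlier in the lineage, had a log2 fold change of 1.67 (adjusted p = 1.63e-06), and SPI1, which encodes PU.1, one of -0.58 (adjusted p = 0.0106). SPI1 lost its call without the GST-PTR1 library of 28837431 counts. Levels within the list differed widely. MS4A1, which encodes the B cell surface marker CD20, stood at 0.562 to 0.888 CPM over all libraries. CR2 and FCER2 stood at 216.8 to 319.6 and 56.5 to 82.8 CPM, and neither was called.

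**Figure D4:**
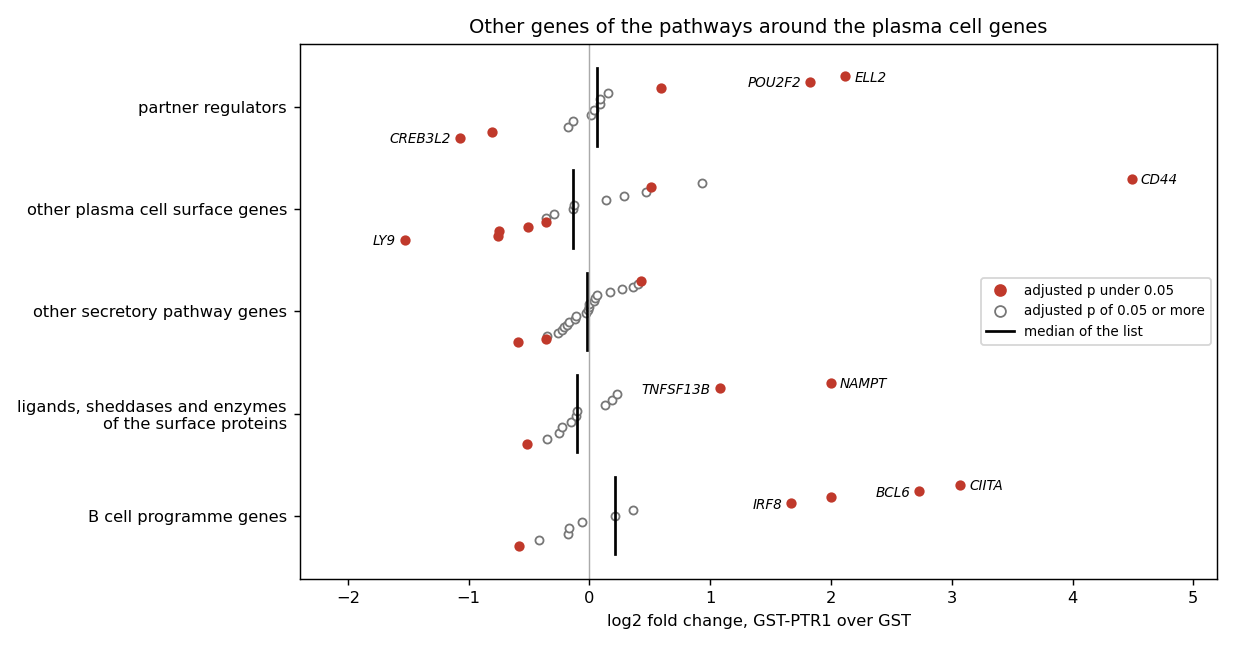
Log2 fold change, GST-PTR1 over GST, of the genes in 5 lists of related genes, with each point a gene that passed the filter, filled where its adjusted p was under 0.05, and a vertical line at the median of each list. The medians lie between -0.14 and 0.21, with CD44, CIITA and BCL6 farthest to the right and LY9 farthest to the left.

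Markers of other blood and stromal cell types were counted as a check for RNA of other cells. Of 14 such genes, 12 were under the filter, 4 of them at 0 in every library, and 10 had at most 3 counts in any library. CD14 and HBA1 passed the filter, and neither was called. The summed level of the 14 genes was 3.45 to 3.79 CPM with GST and 2.78 to 3.78 CPM with GST-PTR1. Of the 10 plasma cell genes, JCHAIN stood highest under GST, at the 99.8th percentile of levels, and SLAMF7 lowest, at the 24.4th, with PRDM1 at the 68.4th and POU2AF1 at the 76.3rd. CD27, another marker of normal plasma cells, had 1 count over all libraries.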

How the data were processed

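RPMI8226 cells received 100 nM GST-PTR1 or GST for 6 hr, and RNA was sequenced from stranded mRNA libraries. The authors deposited raw counts of reads per gene, made with featureCounts version 1.5.0-p1 on the Ensembl release 75 annotation of GRCh37, counting by strand and leaving out reads shared by several genes. The aligner's settings are not given in the sources used here. The deposited table also holds the exon length of each gene, and no column was left unused. Libraries were assigned to treatments by column name.

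The counts were analysed in R 4.3.3 with edgeR 4.0.16 (TMM, filterByExpr, glmQLFit and glmQLFTest, no covariate). RPKM was computed from the deposited lengths and TMM-scaled totals. At these depths 3 counts equal 0.0671 to 0.1973 CPM, for counting error only. Genes, roles and lists were chosen with earlier results of these data known. Besides the 10 genes, up to 3 genes per list and direction with the smallest adjusted p were named. CD27, MS4A1, CR2, FCER2, CD14, HBA1, POU2F1, IKZF3, CD48, SLAMF1, SLAMF6 and CD84 were named after their values were seen. Some genes of the lists are not reported by name here.

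Alternatives used size factors from DESeq2 or plain totals as scaling, low-count filters of 1 count in any library or 10 in every library, DESeq2 1.42.0 or limma 3.58.1 (voom), and leaving out each library. Fits of 4 libraries and the mean over roles were added after seeing the data. The edgeR script was tested on simulated data. Promoters were searched with Python 3.11.15, and figures were drawn with matplotlib 3.10.9.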

Additional observations from a re-analysis of the deposited data

How the results depend on the processing

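PRDM1, IRF4, SLAMF7, TNFRSF17 and SDC1 kept their direction and their call in all 14 alternatives, with log2 fold changes of 1.15 to 1.45, 0.46 to 0.71, 1.32 to 1.64, -1.63 to -1.24 and -1.23 to -0.92. XBP1 was lower in all 14 and called in 10. POU2AF1, CD38, MZB1 and JCHAIN were called in none. CD38 (-0.04) and JCHAIN (-0.13) changed sign with library totals. Without 1 library at a time, MZB1 ranged from -0.21 to 0.03 and JCHAIN from -0.09 to 0.18, the positive MZB1 value coming without the GST library of 15202503 counts and the negative JCHAIN value without the GST-PTR1 library of 44688737 counts.

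Over all genes, 3486 were called. Leaving out 1 library gave 2287 to 3349, with 1051 to 1531 higher and 1178 to 1818 lower, and the lowest counts came without the GST-PTR1 library of 28837431 counts (2287) and the GST library of 23453473 counts (2288). Library totals gave 927 higher and 3795 lower, and a filter of at least 1 count in any library gave 2608 higher. The shift of regulators against markers was 1.16 to 1.28 without 1 library and 0.47 with the mean. The causes were not tested. Of the 20 genes named from the lists by their smallest adjusted p, 12 kept direction and call in every alternative that tested them, 8 lost the call in 1 or more alternatives, and none changed sign. CD44, LY9 and TNFSF13B were not tested with the filter of 10 counts in every library, which removes them.

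A replicate block over all 6 libraries could not be fitted, since column names and the samples' replicate numbers differ. The 4 libraries with a column number found in both treatments, chosen after seeing the data, gave 3638 calls without a block and 3318 with the replicate block. Deviations of same-numbered libraries from their treatment means correlated with r = 0.253 and -0.0276. With so few shared numbers, these values cannot decide whether equal numbers mark paired replicates. In both fits XBP1 was not called (adjusted p = 0.0522 and 0.0768) and the other calls of plasma cell genes held.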

Other observations

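The ligands, sheddases and enzymes that act on the surface proteins made up a further list of 15 genes, of which 12 passed the filter, 2 were called higher, 1 lower and 9 not, with a median log2 fold change of -0.10. NAMPT, an enzyme in the synthesis of NAD, which CD38 consumes, rose from 229.4, 264.5 and 231.4 to 945.3, 950.1 and 996.9 CPM (log2 fold change 2.00, SE 0.11, edgeR quasi-likelihood adjusted p = 5.01e-07). NT5E, the surface nucleotidase CD73, had a log2 fold change of -0.52 (adjusted p = 0.0273), and TNFSF13B, which encodes the ligand BAFF, one of 1.08 at 0.284 to 1.02 CPM (adjusted p = 0.0497). Their calls were lost in 6 and 10 of the alternatives.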
